A study of Mus musculus with 20 samples.

Results

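Cells labelled Fh1 wt re-expressed (Rec, 5 libraries) were compared with cells labelled Fh1 wt (Fh1_fl_fl, 5 libraries) by RNA sequencing, to describe which genes remained different after Fh1 had been put back. These are 10 of the 20 libraries of the series, chosen by sample title and genotype label, and the comparison covers the autosomal genes. Of 34850 autosomal genes in the count tables, 12125 passed the filter on low counts and were tested. All groups are immortalised epithelial cells from mouse kidney, strain C57BL/6J, grown in DMEM with 10% FBS and 0.05 mg/mL uridine. The other groups are clone1 and clone19, 5 libraries each, both labelled Fh1 deletion, and their levels are given beside those of Rec. The labels do not say from which cells Rec was made, whether Rec is 1 clone, what drives the re-expressed gene, or which part of Fh1 was deleted in the clones. Nothing in them ties the 5 libraries to 5 cultures, so the p-values measure the spread between libraries, and that spread may be technical.

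Fumarate hydratase, encoded by Fh1, converts fumarate to malate in the tricarboxylic acid (TCA) cycle, and a cytosolic form handles fumarate from the urea cycle and purine synthesis. Without the enzyme fumarate accumulates. Fumarate can inhibit dioxygenases that use 2-oxoglutarate, among them the prolyl hydroxylases that mark the hypoxia-inducible factors (HIF) for destruction and the TET and KDM enzymes that demethylate DNA and histones. It can also modify KEAP1, the inhibitor of the antioxidant regulator NRF2. Loss of the enzyme in kidney epithelium is known for cysts and, in people, for renal cancer.

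Gene counts summed to between 8978370 and 18972176 in the Fh1_fl_fl libraries and between 8672778 and 17826881 in Rec. Within a group, 2 libraries differed by a root-mean-square log2 distance of 0.23 to 0.33 (Fh1_fl_fl) or 0.28 to 0.39 (Rec), and libraries of different groups by 0.95 to 1.03. No 2 libraries held identical values, and every pair of replicates differed by more than counting noise (chi-square per degree of freedom 2.63 or more). Chromosome Y held 0.0089 to 0.0094% of the gene counts in Fh1_fl_fl and 0.00086 to 0.0015% in Rec, and sex chromosomes are outside the comparison. Levels are given as CPM, a count divided by the scaled library size in units of 1000000 reads, with the mean ± SD of the 5 libraries of a group. Fold changes are on the log2 scale with their standard error (SE), and a gene is called changed at an adjusted p under 0.05. CPM is not divided by gene length, so levels are compared between groups, not between genes.

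The targeted gene had its lowest mean in Rec. Fh1 gave 84.7, 96.3, 97, 97.2 and 86.6 CPM in the 5 Fh1_fl_fl libraries and 63.9, 76.4, 80.8, 69.2 and 66.4 CPM in the 5 Rec libraries. Every Rec library lay below every Fh1_fl_fl library (log2 fold change -0.37, SE 0.071, adjusted p = 4.29e-05). Fh1 stood at 113 ± 5.93 CPM in clone1 and 84.8 ± 7.32 in clone19, so its count in cells labelled deletion was not low. Fh1 (ENSMUSG00000026526) lies on GRCm38 chromosome 1, 175600374 to 175625635, minus strand. A count over the whole gene includes exons outside a deleted part, and it cannot tell a re-expressed copy from the resident gene, so it checks neither label.

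The kidney epithelial markers were present in both groups. Cdh1 (E-cadherin) fell from 426 ± 55.6 to 359.9 ± 28.7 CPM, with overlapping groups and an adjusted p of 0.0243. Leaving out single libraries gave Cdh1 an adjusted p of up to 0.096. The adhesion molecule Epcam stood at 439 ± 29.2 CPM in Fh1_fl_fl and 422 ± 15.9 in Rec and the kidney lineage factor Pax8 at 194 ± 8.17 CPM in Fh1_fl_fl and 185 ± 13 in Rec, and neither passed the test (adjusted p = 0.504 and 0.302). The keratins Krt8, Krt18 and Krt19 rose, Krt8 from 565 ± 48.1 to 959 ± 64.8 CPM and Krt19 from 348 ± 17.1 to 682 ± 53.8 CPM. The nephron factor Pax2 fell from 272 ± 20.4 to 96 ± 4.14 CPM and kidney-specific cadherin Cdh16 from 831 ± 85.4 to 594 ± 39.1 CPM. Defining markers of other cells were at or near 0. Podocyte Wt1, pericyte Pdgfrb, fibroblast Col3a1 and leukocyte Tyrobp had 0 counts in all 10 libraries, and endothelial Pecam1 and Kdr had 12 or fewer counts per group. Summed over the list, leukocyte markers reached 68.4 to 77 CPM in Fh1_fl_fl and 32.8 to 39.7 in Rec, nearly all from Csf1r, Cd14 and Cd68, and endothelial markers 7.17 to 9.65 CPM in Fh1_fl_fl and 7.77 to 9.61 in Rec. Smooth muscle and pericyte markers summed to 46.2 to 65.2 CPM in Fh1_fl_fl and 14.2 to 18.6 in Rec, mostly Mcam and Notch3, fibroblast markers to 556 to 629.7 CPM in Fh1_fl_fl and 439 to 487 in Rec, mostly Gsn, and podocyte markers to 1199 to 1294 CPM in Fh1_fl_fl and 1186 to 1348 in Rec, mostly Cd2ap, Nes and Podxl. Synpo, an actin-binding protein also known from podocytes, fell from 18.4 ± 2.89 to 1.34 ± 0.362 CPM. In bulk RNA, fewer cells that express a gene and less of its RNA per cell cannot be told apart.

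**Figure D1:**
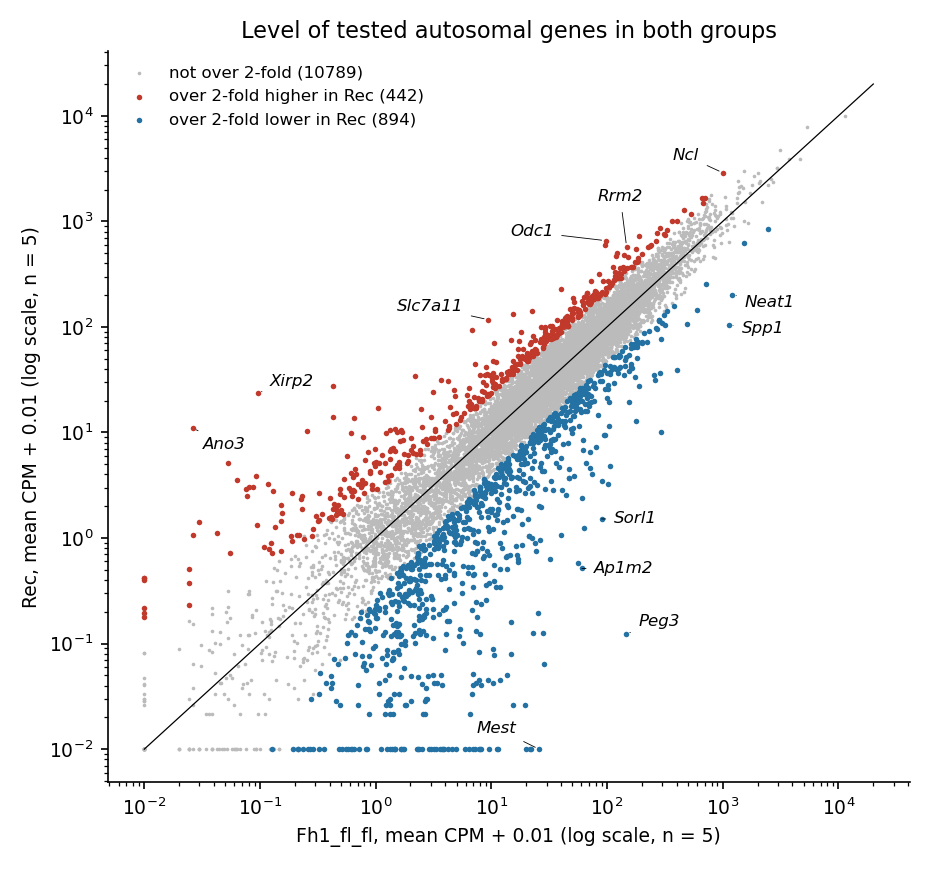
Mean CPM of each tested autosomal gene in Fh1_fl_fl (horizontal) and Rec (vertical), both on log scales with 0.01 added, and the line of equal level. The 894 genes called over 2-fold lower (blue) outnumber the 442 over 2-fold higher (red), and a row of blue points at the bottom has 0 counts in Rec.

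Most of the transcriptome differed between Rec and Fh1_fl_fl. Of the 12125 tested autosomal genes, 8600 changed (70.9%), 4113 of them higher in Rec (33.9%) and 4487 lower (37%). Over all tested genes the absolute log2 fold change had a median of 0.44 and the signed one a median of -0.03. A change larger than 2-fold was called for 442 genes higher in Rec (3.65%) and 894 lower (7.37%), so 66.9% of the large changes were losses. All 5 Rec libraries lay above all 5 Fh1_fl_fl libraries for 28% of the tested genes and below them for 30.5%. Scaling to library totals moved the median over all genes to -0.16 and gave 3190 higher and 5403 lower genes, and with it 318 were over 2-fold higher and 1060 lower. Totals scaling shifted the fold changes downwards, so it could only widen the excess of large losses and does not test it. The balance of all changes depended on the scaling. At the extremes, 227 tested autosomal genes had 3 or fewer counts over all Rec libraries, 28 of them with at least 5 CPM in Fh1_fl_fl. In the opposite direction 99 genes had 3 or fewer counts over all Fh1_fl_fl libraries, 2 of them (Ano3 and Dhh) with at least 5 CPM in Rec. Since the filter on low counts used all 4 groups, some of the 227 and 99 may be near 0 in both Rec and Fh1_fl_fl. The 227 and 99 are therefore not counts of losses and gains.

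Imprinted genes, which are transcribed from 1 parental copy and are regulated by DNA methylation, held some of the most complete losses. Paternally expressed Peg3, a zinc finger protein gene, was nearly lost. Peg3 gave 156, 142, 136, 146 and 148 CPM in the 5 Fh1_fl_fl libraries and 0.0935, 0.0983, 0.0818, 0.118 and 0.174 CPM in the 5 Rec libraries. Every Rec library had a trace of the control level (log2 fold change -10.13, SE 0.30, adjusted p = 1.58e-20), while Peg3 stood at 1016 ± 309.9 CPM in clone1 and 874 ± 54.1 in clone19, above Fh1_fl_fl. Peg3 (ENSMUSG00000002265) lies on GRCm38 chromosome 7, 6703892 to 6730431, minus strand. Its neighbour Zim1, a maternally expressed zinc finger gene, had 2055 counts over the 5 Fh1_fl_fl libraries and 3 over the 5 Rec libraries. Zim1 was lower by a ratio of 574 (exact 95% counting interval 196 to 2787) and was also low in the clones, at 1.21 ± 0.471 CPM in clone1 and 0.679 ± 0.438 in clone19. Rec remained below both clones for Zim1 (log2 difference -4.28, SE 0.64, adjusted p = 1.03e-06 against clone1, log2 difference -3.54, SE 0.75, adjusted p = 0.000134 against clone19).

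Grb10, an adaptor that restrains insulin signalling, and Mest, an imprinted hydrolase gene, had 0 counts in all 5 Rec libraries. Grb10 gave 22.3, 25.8, 18.9, 22 and 21.3 CPM in the 5 Fh1_fl_fl libraries, at least 430.4-fold higher than the limit that 0 counts in Rec allow. Mest gave 25.6, 23.1, 26.6, 25.1 and 28.7 CPM in the 5 Fh1_fl_fl libraries, at least 509-fold higher. Grb10 was low in the clones too (0.369 ± 0.0943 CPM in clone1 and 0.255 ± 0.183 in clone19), while Mest stood at 11.1 ± 0.581 CPM in clone1 and 2.76 ± 0.757 in clone19. The growth suppressor gene Cdkn1c, which inhibits cyclin-dependent kinases, went from 10.2 ± 0.606 to 0.0792 ± 0.0834 CPM. The neuronal growth suppressor Ndn was lower by a ratio of 270.0 (exact 95% counting interval 74.4 to 2234), and Plagl1, a zinc finger factor, was at least 57.6-fold lower, with 0 counts in Rec and clone1 and 4.78 ± 0.824 CPM in clone19. Usp29, transcribed next to Peg3, had 0.26 ± 0.115 CPM in Fh1_fl_fl and 0 counts in Rec (at least 5.03-fold lower), with 4.41 ± 1.7 CPM in clone1 and 3.34 ± 0.675 in clone19. Sgce fell from 65.4 ± 4.42 to 28 ± 1.84 CPM and Zrsr1 from 19.3 ± 0.889 to 5.65 ± 0.822 CPM.

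Of 17 tested imprinted genes, 11 fell (10 of them over 2-fold) and 3 rose (background 37%, 7.37% and 33.9% of tested genes). Their median log2 fold change was -1.78. Setting the 4 genes without counts in Rec at their bound could not move this median, since every bound lay below it. The risers were Peg10, a retrotransposon-derived gene, from 31.9 ± 4.76 to 67.4 ± 4.76 CPM, Asb4 from 0.756 ± 0.439 to 3.14 ± 0.529 CPM and Phlda2 from 8.09 ± 0.494 to 11.8 ± 2.47 CPM. Igf2r, the eleventh that fell, was called (adjusted p = 0.0137) but not without Rec replicate 2 (adjusted p = 0.0574), and it overlaps the antisense transcript Airn, from which its reads cannot be told apart without a stated strand setting. The losses were not of 1 parental class, since Peg3, Mest, Ndn and Plagl1 are known as paternally expressed and Zim1 and Cdkn1c as maternally expressed. Against the clones, 11 of the 17 were lower in Rec than in clone1 and 13 lower than in clone19 (background 38.2% and 37.2% of tested genes), with 4 and 3 higher (background 39.9% and 36.6%). Names outside the rule for named genes in this list (Ndn, Plagl1, Usp29, Sgce, Zrsr1, Igf2r, Peg10, Asb4, Phlda2) complete the list and were added after their values were seen.

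The start regions of 3 imprinted genes with 0 or few counts in Rec are shown because imprinting acts through CpG dinucleotides, which are in capitals (RefSeq, GRCm38.p6, 250 bases before to 50 after the start, on the gene's strand). The window of Peg3 (chr7:6730370-6730669, minus strand) held 13 CpG, that of Zim1 (chr7:6696383-6696682, minus strand) 20 and that of Grb10 (chr11:12037371-12037670, minus strand) 45. The median was 7 over the 25748 autosomal windows of the table and 21 over the 9341 tested genes with a window, which are only 77% of those tested. Of the 11 imprinted genes that fell, 9 had a window, with a median of 17 CpG. The counts of Peg3 and Zim1 and this median lie above the first value and below the second. They describe the letters, and methylation was not measured.
Peg3: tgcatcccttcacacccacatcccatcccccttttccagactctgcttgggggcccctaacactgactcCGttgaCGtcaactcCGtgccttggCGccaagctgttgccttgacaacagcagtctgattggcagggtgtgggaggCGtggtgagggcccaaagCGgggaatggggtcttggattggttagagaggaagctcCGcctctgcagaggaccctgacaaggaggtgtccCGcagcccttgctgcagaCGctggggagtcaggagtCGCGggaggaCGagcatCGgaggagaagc
Zim1: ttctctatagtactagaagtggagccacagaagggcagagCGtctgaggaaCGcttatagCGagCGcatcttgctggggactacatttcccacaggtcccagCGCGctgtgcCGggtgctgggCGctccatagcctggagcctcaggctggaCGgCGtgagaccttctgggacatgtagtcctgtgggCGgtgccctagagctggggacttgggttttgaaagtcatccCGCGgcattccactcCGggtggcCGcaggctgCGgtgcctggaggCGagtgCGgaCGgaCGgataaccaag
Grb10: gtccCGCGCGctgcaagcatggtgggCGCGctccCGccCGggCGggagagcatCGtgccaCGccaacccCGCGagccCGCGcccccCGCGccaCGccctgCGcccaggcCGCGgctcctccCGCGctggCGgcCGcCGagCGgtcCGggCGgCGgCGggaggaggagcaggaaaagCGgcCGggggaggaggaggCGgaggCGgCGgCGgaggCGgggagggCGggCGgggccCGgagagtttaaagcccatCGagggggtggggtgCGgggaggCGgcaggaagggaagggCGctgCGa

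Other genes with few or no reads in Rec came from several classes. Gnai1, a G protein subunit, had 21.5 ± 1.91 CPM in Fh1_fl_fl and 0 counts in Rec (at least 418-fold lower), and stood at 13.8 ± 1.18 CPM in clone1 and 0.415 ± 0.254 in clone19. The zinc finger gene Zfp334 had 0 counts in Rec against 20.1 ± 1.3 CPM (at least 398-fold lower). The glycosyltransferase gene Galnt14 was lower by a ratio of 882 (exact 95% counting interval 158 to 34870.0), the neuronal leucine-rich repeat gene Lrrn1 by a ratio of 407 (exact 95% counting interval 112 to 3362) and the desmosomal cadherin Dsc2 by a ratio of 1147 (exact 95% counting interval 206 to 45330.0). Clone levels of these 3 were below Fh1_fl_fl as well, at 0.0174 ± 0.0388 CPM in clone1 and 0.668 ± 0.505 in clone19 for Galnt14, 0.0174 ± 0.0388 CPM in clone1 and 0.17 ± 0.164 in clone19 for Lrrn1 and 0.0174 ± 0.0388 CPM in clone1 and 6.7 ± 1.1 in clone19 for Dsc2. Rasgrp3, an activator of RAS proteins, fell from 28.1 ± 1.9 to 0.117 ± 0.136 CPM, the kinesin gene Kif26a from 22.9 ± 2.68 to 0.115 ± 0.102 CPM and the sorting receptor gene Sorl1 from 89.7 ± 9.4 to 1.51 ± 0.197 CPM. Acat1, a mitochondrial thiolase of ketone and isoleucine metabolism, fell from 55.6 ± 2.31 to 0.567 ± 0.229 CPM and stood at 0.162 ± 0.265 CPM in clone1 and 38.2 ± 4.22 in clone19, high in clone19 and nearly absent in clone1 and Rec.

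Fewer genes appeared. Xirp2, an actin-binding protein gene of muscle, was nearly without counts in Fh1_fl_fl and had 25.1, 26, 21.4, 28.1 and 18.5 CPM in the 5 Rec libraries (log2 fold change 7.93, SE 0.30, adjusted p = 3.7e-18). It stood at 0.742 ± 0.394 CPM in clone1 and 0.213 ± 0.184 in clone19, and Rec exceeded both clones (log2 difference 4.91, SE 0.23, adjusted p = 1.16e-16 and log2 difference 6.81, SE 0.31, adjusted p = 8.59e-17). The ion channel family gene Ano3 had 1 count over the 5 Fh1_fl_fl libraries and 12.4, 11.2, 8.92, 9.77 and 12.8 CPM in the Rec libraries, a ratio of 787 (exact 95% counting interval 141 to 31140.0). Dhh (desert hedgehog), a secreted signal, had 3 counts over the 5 Fh1_fl_fl libraries and 293 over the 5 Rec libraries, a ratio of 116 (exact 95% counting interval 39.5 to 568), and was also present in clone1 (9.03 ± 0.905 CPM). Ackr3, a chemokine scavenger receptor, rose from 2.16 ± 0.4 to 34.4 ± 1.88 CPM and Ptpn22, a tyrosine phosphatase gene, from 6.82 ± 0.61 to 92.6 ± 4.45 CPM. The epidermal cross-linking enzyme gene Tgm1 rose from 4.19 ± 0.676 to 31 ± 3.94 CPM and the muscle gene Asb5 from 3.1 ± 0.518 to 24.2 ± 2.41 CPM. The cytoskeletal gene Clip4 and the protocadherin Pcdh7 had 2 counts and 1 count over the Fh1_fl_fl libraries and 1.42 ± 0.615 and 1.06 ± 0.31 CPM in Rec. In the clones Tgm1 and Asb5 stood at 1.6 ± 0.518 CPM in clone1 and 1.08 ± 0.501 in clone19 for Tgm1 and 2.78 ± 0.664 CPM in clone1 and 1.57 ± 0.505 in clone19 for Asb5.

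**Figure D2:**
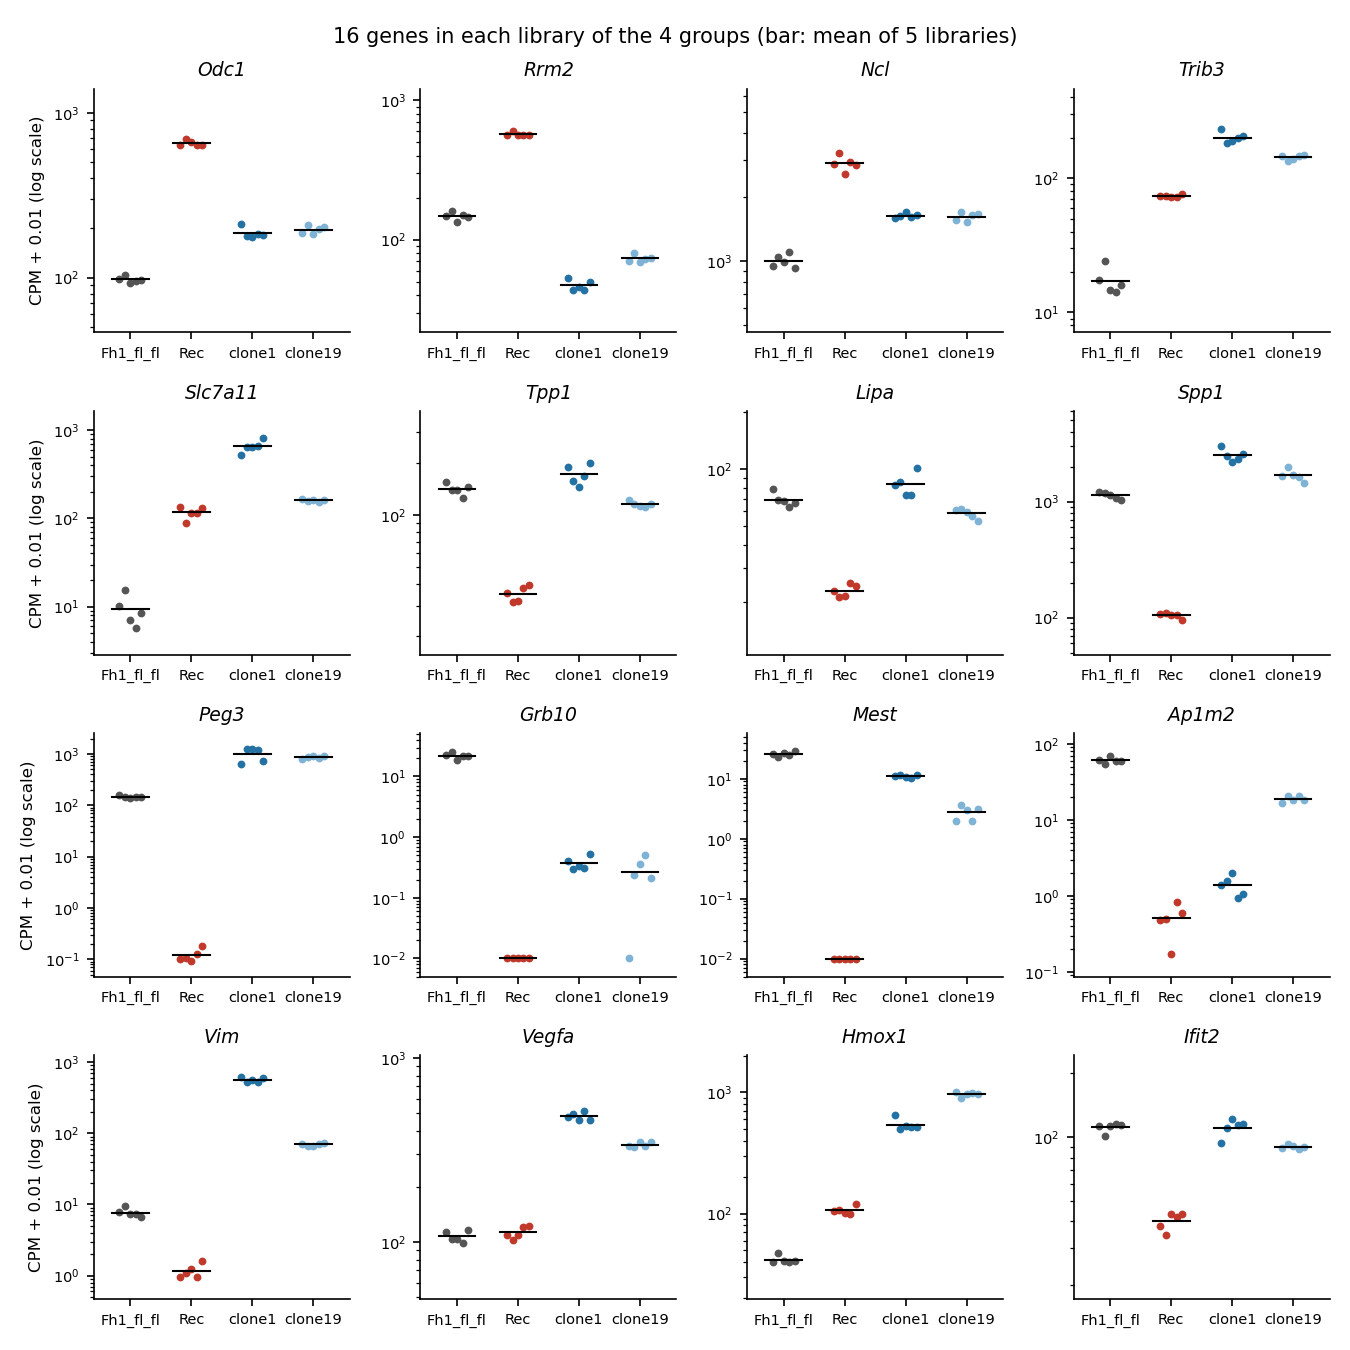
CPM (log scale, 0.01 added) of 16 genes in each of the 5 libraries of the 4 groups, with the mean as a bar. Odc1, Rrm2 and Ncl are highest in Rec, Tpp1, Lipa, Spp1, Peg3, Mest, Vim and Ifit2 are lowest in Rec, and Vegfa in Rec overlaps Fh1_fl_fl.

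Growth genes moved together in the opposite direction. Of 41 tested cell cycle genes, 38 rose and 1 fell (background 33.9% and 37%), 15 of them over 2-fold, and the list's median log2 fold change was 1.02. Rrm2, the ribonucleotide reductase subunit that limits nucleotide supply for DNA synthesis, showed the largest rise of the list. Rrm2 gave 148, 159.5, 134, 151 and 146 CPM in the 5 Fh1_fl_fl libraries and 568, 602, 564, 559 and 567 CPM in the 5 Rec libraries. All Rec libraries were far above all others (log2 fold change 1.95, SE 0.061, adjusted p = 7.67e-20), with 47 ± 4.43 CPM in clone1 and 73.5 ± 4.5 in clone19. The licensing factor Cdc6 rose from 17 ± 2.3 to 52.6 ± 3.93 CPM and Mcm5, a subunit of the replicative helicase, from 117 ± 6.91 to 333 ± 9.81 CPM. Mki67, the proliferation marker, rose from 185 ± 23 to 452 ± 56 CPM. Ccnd1 (cyclin D1), which drives entry into the cycle, rose from 458 ± 35 to 1283 ± 56.7 CPM and stood at 1321 ± 56.1 CPM in clone1 and 1015 ± 43.9 in clone19, so for this member the difference between Rec and clone1 did not pass the test (log2 difference -0.04, SE 0.056, adjusted p = 0.488). The exception was Ccne1 (cyclin E1), which fell from 17.9 ± 1.91 to 8.04 ± 0.913 CPM. Against the clones, 37 members were higher in Rec than in clone1 and 33 higher than in clone19 (background 39.9% and 36.6%), with 2 and 4 lower. Mki67 and Ccne1 were named after their values were seen.

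Inhibitors of the cycle did not move as 1 group. Of 29 tested p53 targets and cell cycle inhibitors, 13 rose and 10 fell (background 33.9% and 37%), with a median of -0.02. Totals scaling gave 11 and 13. Cdkn1a (p21) fell from 121 ± 6.33 to 72.2 ± 4.19 CPM, the p53 target Trp53inp1 from 83.5 ± 5.08 to 14.7 ± 2.07 CPM and Btg2, an antiproliferative p53 target, from 64.2 ± 4.1 to 15.9 ± 1.28 CPM. Plk2, a stress-induced kinase, rose from 189.9 ± 12.8 to 722 ± 34.3 CPM and stood at 624 ± 24.9 CPM in clone1 and 588 ± 10.4 in clone19. Cdkn1a was named after its values were seen.

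Ornithine decarboxylase (Odc1), the first enzyme of polyamine synthesis, was among the strongest risers at high counts. Odc1 gave 98.5, 104, 92.8, 95 and 96.9 CPM in the 5 Fh1_fl_fl libraries and 638, 699, 668, 641 and 636 CPM in the 5 Rec libraries. The groups did not overlap (log2 fold change 2.75, SE 0.059, adjusted p = 2.6e-23). In the clones Odc1 stood at 187 ± 14.2 CPM in clone1 and 195 ± 10.1 in clone19, below Rec in both (log2 difference 1.81, SE 0.057, adjusted p = 1.88e-20 and log2 difference 1.75, SE 0.057, adjusted p = 1.19e-19). Odc1 (ENSMUSG00000011179) lies on GRCm38 chromosome 12, 17544794 to 17551505, plus strand. Spermidine synthase (Srm), a later step, rose from 43.2 ± 3.45 to 122 ± 11.5 CPM. Eif5a, the translation factor that carries the spermidine-derived residue hypusine, rose from 670.4 ± 48.4 to 1481 ± 119.9 CPM. In the urea cycle and arginine list, which also holds polyamine genes, 7 of 12 rose and 4 fell (background 33.9% and 37%). The median was 0.43. The 7 that rose were Odc1 and Srm, given above, and Oat, Oaz1, Amd1, Slc7a1 and Slc25a15. The 4 that fell were Ass1, Asl, Arg2 and Gamt. Ass1, which makes argininosuccinate, fell from 10.1 ± 1.02 to 4.98 ± 0.808 CPM, Asl, whose products are arginine and fumarate, from 53.4 ± 2.56 to 34.1 ± 1.51 CPM, and mitochondrial arginase Arg2 from 27.1 ± 3.23 to 11.5 ± 1.77 CPM. Ass1 in Rec was thus below both clones (15.4 ± 0.66 CPM in clone1 and 83.4 ± 4.28 in clone19).

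Among the most abundant over 2-fold risers were Ncl (nucleolin, a ribosome assembly protein), from 1003 ± 76 to 2882 ± 234 CPM, the nuclear import receptor Kpnb1, from 707 ± 39.7 to 1661 ± 100.4 CPM, the serine synthesis enzyme Psat1, from 665 ± 54.5 to 1675 ± 59 CPM, and the chaperonin subunit Cct8, from 531 ± 28 to 1178 ± 52 CPM. The MYC transcription factor gene Myc, named after its values were seen, rose from 119.8 ± 7.77 to 185 ± 6.01 CPM. Of 29 heat shock and endoplasmic reticulum chaperones, 16 rose and 7 fell (background 33.9% and 37%), with a median of 0.28. The mitochondrial chaperone Hspd1 rose from 364 ± 25.5 to 1017 ± 62.3 CPM and cytosolic Hsp90aa1 from 689 ± 30.7 to 1461 ± 71.2 CPM. Inducible Hspa1b, whose near-identical copy Hspa1a makes its count uncertain, fell from 39.6 ± 2.17 to 15.4 ± 2.69 CPM.

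The amino acid response, the programme that the factor ATF4 runs when amino acids are short or proteins misfold, was higher in Rec. Of 29 tested genes 24 rose and 4 fell (background 33.9% and 37%). Among them 14 were over 2-fold higher, and the median log2 fold change of the list was 1.15. The pseudokinase gene Trib3, a sensitive ATF4 target, was higher in every Rec library. Trib3 gave 17.3, 24, 14.6, 14.2 and 16 CPM in the 5 Fh1_fl_fl libraries and 73.1, 73.7, 73, 71.9 and 76.7 CPM in the 5 Rec libraries. Rec stood between the controls and the clones (log2 fold change 2.11, SE 0.096, adjusted p = 1.28e-16), with 201 ± 19.2 CPM in clone1 and 143 ± 5.93 in clone19. Slc7a11, which imports cystine for glutathione and is also an NRF2 target, gave the largest rise of the list. Slc7a11 gave 10.1, 15.4, 7.05, 5.73 and 8.57 CPM in the 5 Fh1_fl_fl libraries and 136, 88.8, 115, 116 and 131 CPM in the 5 Rec libraries. The groups were well apart (log2 fold change 3.67, SE 0.16, adjusted p = 6.45e-17), and Slc7a11 stood at 656 ± 104 CPM in clone1 and 160.0 ± 4.62 in clone19. Shmt2, a mitochondrial enzyme of one-carbon metabolism, rose from 121 ± 18.5 to 498 ± 22 CPM and the leucine transporter Slc7a5 from 120.2 ± 25.1 to 466 ± 40.9 CPM. The mitochondrial folate enzyme Aldh1l2 rose from 15.4 ± 1.75 to 133 ± 17.7 CPM and Cth, which makes cysteine from cystathionine, from 10.5 ± 1.43 to 69.8 ± 5.23 CPM. The 4 that fell were Stc2, a secreted stanniocalcin with 0.545 ± 0.144 CPM in Fh1_fl_fl and 0 counts in Rec, and, on the log2 scale, the stress gene Nupr1, which fell by 1.49, the mTORC1 inhibitor Ddit4 by 0.36 and the lipoprotein receptor Vldlr by 0.28.

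Asparagine synthetase (Asns) rose from 178 ± 20.1 to 544 ± 27.9 CPM, the serine and alanine transporter Slc1a4 from 22.8 ± 4.42 to 82.1 ± 10.3 CPM and Atf4 itself from 286 ± 15.4 to 858 ± 45.5 CPM. Ddit3, a stress factor downstream of ATF4, rose from 13.7 ± 1.14 to 37.6 ± 3.77 CPM and remained below the clones (342 ± 23.1 CPM in clone1 and 206 ± 14.4 in clone19; log2 difference -3.18, SE 0.074, adjusted p = 4.47e-23 against clone1). The list medians against Fh1_fl_fl were 1.15 in Rec, 1.19 in clone1 and 1.10 in clone19, and these comparisons share their control libraries. Directly against the clones, 10 members were higher and 15 lower in Rec than in clone1, and 13 higher and 11 lower than in clone19 (background 39.9% higher and 38.2% lower, and 36.6% and 37.2%). Stc2, Nupr1, Ddit4, Vldlr, Asns, Slc1a4 and Atf4 were named after their values were seen.

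Start regions of 4 of these genes are shown because they hold the letters TGATGNAA, an ATF4 binding motif, on either strand (in capitals). This motif was found in 8 of the 21 amino acid response genes that rose and have a window (38.1%). It was found in 3.87% of the 25748 autosomal windows of the table. Over the 9341 tested genes with a window it was 2.17%, but these are only 77% of the tested genes, so that share is incomplete. Of all 26 tested list members with a window 9 held the motif (34.6%), and of the 4 that fell 1 did (25%). The list is of genes of the ATF4 programme, so its share does not bear on the rise in Rec. Trib3 lies at chr2:152344011-152344310, minus strand, Slc7a11 at chr3:50443564-50443863, minus strand, Asns at chr6:7693160-7693459, minus strand and Slc1a4 at chr11:20332664-20332963, minus strand. A match describes the letters and does not show binding.
Trib3: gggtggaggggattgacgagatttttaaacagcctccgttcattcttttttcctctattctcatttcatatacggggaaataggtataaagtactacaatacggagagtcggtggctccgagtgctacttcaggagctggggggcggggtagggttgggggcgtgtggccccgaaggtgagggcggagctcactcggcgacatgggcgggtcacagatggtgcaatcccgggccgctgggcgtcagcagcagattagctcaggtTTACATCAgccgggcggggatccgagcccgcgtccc
Slc7a11: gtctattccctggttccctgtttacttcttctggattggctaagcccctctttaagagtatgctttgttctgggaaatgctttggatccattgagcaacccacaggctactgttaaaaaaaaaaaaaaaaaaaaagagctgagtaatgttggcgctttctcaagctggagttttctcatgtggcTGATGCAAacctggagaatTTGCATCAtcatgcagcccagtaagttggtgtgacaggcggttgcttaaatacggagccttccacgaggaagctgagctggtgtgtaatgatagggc
Asns: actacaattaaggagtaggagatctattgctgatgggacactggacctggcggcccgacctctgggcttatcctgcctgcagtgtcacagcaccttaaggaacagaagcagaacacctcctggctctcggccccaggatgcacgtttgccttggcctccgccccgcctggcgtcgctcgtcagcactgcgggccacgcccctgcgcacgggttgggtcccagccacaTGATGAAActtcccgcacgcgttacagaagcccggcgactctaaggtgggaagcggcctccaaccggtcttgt
Slc1a4: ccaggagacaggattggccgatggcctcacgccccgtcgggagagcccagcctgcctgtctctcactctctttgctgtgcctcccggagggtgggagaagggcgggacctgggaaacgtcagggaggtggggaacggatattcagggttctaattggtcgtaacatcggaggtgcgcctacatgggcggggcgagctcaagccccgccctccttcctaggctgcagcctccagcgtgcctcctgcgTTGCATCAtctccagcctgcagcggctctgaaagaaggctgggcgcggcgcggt

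**Figure D3:**
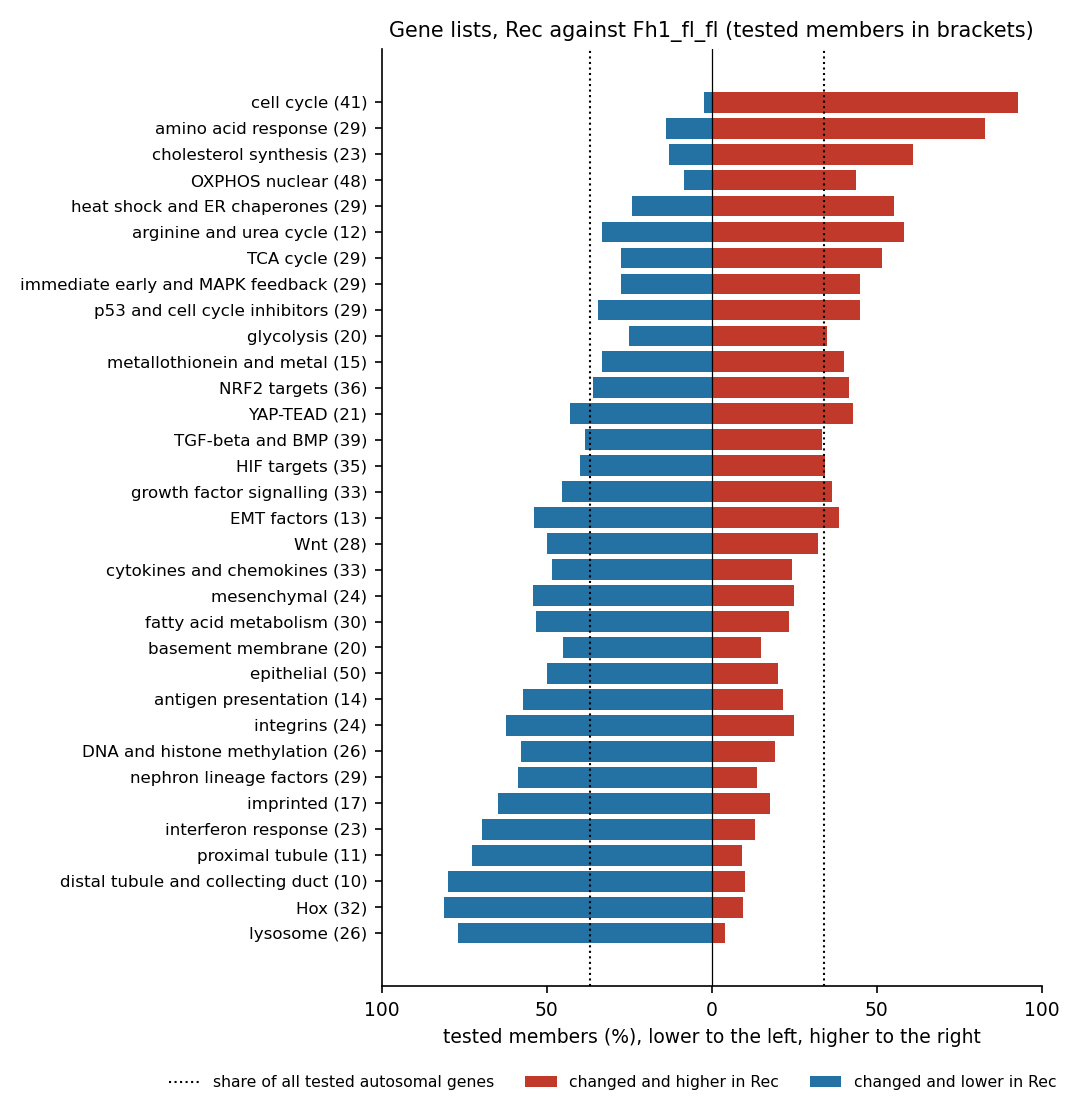
Share of the tested members of each gene list that changed and were higher (red, right) or lower (blue, left) in Rec than in Fh1_fl_fl, for lists with 10 or more tested members, without the lists of protein synthesis genes that were added later. Dotted lines mark the shares over all tested autosomal genes, 33.9% and 37%. Of the lists drawn, cell cycle and amino acid response genes reach furthest to the right, and lysosome, Hox and distal tubule genes furthest to the left.

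Lysosomal genes were lower in Rec. Of 26 tested, 20 fell and 1 rose (background 37% and 33.9%), with a median of -0.60, against 0.28 in clone1 and 0.30 in clone19 with the same controls. The lysosomal peptidase gene Tpp1 showed the largest loss. Tpp1 gave 156, 139, 139, 126 and 144 CPM in the 5 Fh1_fl_fl libraries and 35.6, 31.3, 31.8, 37.9 and 39.3 CPM in the 5 Rec libraries. The groups did not overlap (log2 fold change -2.0, SE 0.082, adjusted p = 1.92e-17), and Tpp1 stood at 172 ± 22 CPM in clone1 and 116 ± 3.9 in clone19. Lysosomal acid lipase (Lipa) was lower in every Rec library as well. Lipa gave 78.8, 69.2, 68.2, 63.3 and 66.1 CPM in the 5 Fh1_fl_fl libraries and 22.6, 21, 21.4, 24.9 and 24.2 CPM in the 5 Rec libraries. Lipa (log2 fold change -1.60, SE 0.085, adjusted p = 3.54e-15) stood at 83.2 ± 11.4 CPM in clone1 and 58.5 ± 3.47 in clone19. The calcium channel Mcoln1 fell from 70.2 ± 6.33 to 33.6 ± 1.08 CPM, the proton pump subunit Atp6v0d1 from 176 ± 9.25 to 76.5 ± 4.97 CPM and the membrane protein Lamp1 from 1652 ± 82.2 to 963 ± 38.2 CPM. Tfeb, the transcription factor that drives many of these genes, fell from 11 ± 1.16 to 7.15 ± 1.04 CPM. The riser was Hexa, a hexosaminidase subunit, from 10 ± 1.39 to 30.4 ± 1.66 CPM. Against the clones, 22 of 26 were lower in Rec than in clone1 and 24 lower than in clone19 (background 38.2% and 37.2%), with 2 and 1 higher.

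Start regions of 3 of the lysosomal genes that fell, chosen after their values were seen, are shown because they hold CACGTG (in capitals, found on both strands as it is its own reverse complement). This E-box is the core of the site bound by TFEB, and other factors bind it too. A match does not show binding by any of them. Only 15 of the 20 lysosomal genes that fell have a window (75%), so a share with the motif is not given for them. Mcoln1 lies at chr8:3500269-3500568, plus strand, Atp6v0d1 at chr8:105566015-105566314, minus strand and Lamp1 at chr8:13158911-13159210, plus strand. The motif occurs in 7.23% of all autosomal windows of the table and in 10.3% of the windows of tested genes. These genes were chosen because they hold it.
Mcoln1: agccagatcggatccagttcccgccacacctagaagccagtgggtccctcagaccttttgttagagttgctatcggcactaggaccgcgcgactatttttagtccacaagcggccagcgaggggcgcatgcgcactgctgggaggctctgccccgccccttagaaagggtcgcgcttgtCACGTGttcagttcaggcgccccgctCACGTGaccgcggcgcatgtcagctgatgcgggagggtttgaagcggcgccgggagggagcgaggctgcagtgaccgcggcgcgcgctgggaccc
Atp6v0d1: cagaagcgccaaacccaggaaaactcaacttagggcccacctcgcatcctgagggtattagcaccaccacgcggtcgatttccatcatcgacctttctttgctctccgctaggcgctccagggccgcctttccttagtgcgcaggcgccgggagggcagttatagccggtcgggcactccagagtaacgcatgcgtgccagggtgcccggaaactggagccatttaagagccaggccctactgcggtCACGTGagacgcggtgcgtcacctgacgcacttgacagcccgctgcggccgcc
Lamp1: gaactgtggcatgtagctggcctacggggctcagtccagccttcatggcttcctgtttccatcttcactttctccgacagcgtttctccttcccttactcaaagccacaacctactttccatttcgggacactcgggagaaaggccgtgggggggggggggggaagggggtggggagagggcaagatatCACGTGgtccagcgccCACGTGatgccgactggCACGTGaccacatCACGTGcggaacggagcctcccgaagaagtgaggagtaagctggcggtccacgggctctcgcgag

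Genes of the differentiated kidney epithelium were lower in Rec. Among 11 tested proximal tubule genes 8 fell and 1 rose (background 37% and 33.9%). Their median was -1.49, against 0.38 in clone1 and -0.08 in clone19 with the same controls. Among 10 distal tubule and collecting duct genes 8 fell and 1 rose. The median of these was -1.38, beside -1.32 in clone1 and -0.91 in clone19. The endocytic receptor Lrp2 (megalin) fell from 35.3 ± 6.46 to 12.6 ± 1.66 CPM, the bicarbonate transporter Slc4a4 from 144 ± 12.2 to 42.9 ± 5.84 CPM, the amino acid transporter Slc6a19 from 9.2 ± 0.799 to 1.81 ± 0.461 CPM and the water channel Aqp1 from 15 ± 1.47 to 3.79 ± 0.561 CPM. Cubilin (Cubn), the partner of megalin, was the riser, from 16.5 ± 0.426 to 33.3 ± 4.3 CPM. Many defining transporters were not expressed in either group, and 14 of 36 proximal markers, among them Slc34a1 and Slc22a6, had 0 counts in each. Uromodulin (Umod), the marker of the thick ascending limb, had 221 counts over the Fh1_fl_fl libraries and 0 in Rec. The potassium channel subunit Kcnj16 lost most of its RNA. Kcnj16 gave 198, 176, 176, 169 and 176 CPM in the 5 Fh1_fl_fl libraries and 14.1, 11.9, 12.1, 12.7 and 13.8 CPM in the 5 Rec libraries. Rec was far below Fh1_fl_fl for Kcnj16 (log2 fold change -3.79, SE 0.08, adjusted p = 2.05e-23), with 17.9 ± 1.72 CPM in clone1 and 7.57 ± 1.03 in clone19. The sodium channel subunit Scnn1a fell from 5.12 ± 0.673 to 1.46 ± 0.306 CPM, and Hsd11b2, which shields the mineralocorticoid receptor from glucocorticoids, was the riser, from 0.124 ± 0.106 to 1.25 ± 0.322 CPM. Cubn and Hsd11b2 were named after their values were seen.

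Developmental regulators of the kidney followed. Of 29 nephron lineage factors 17 fell and 4 rose (background 37% and 33.9%), with a median of -0.50. Sim1, a factor of nephron segments, went from 14.7 ± 1.05 to 0.151 ± 0.13 CPM and Sim2 from 182 ± 3.42 to 50.4 ± 2.3 CPM. Lhx1, which patterns the early nephron, gave 26.9, 27.2, 24.1, 26.6 and 25 CPM in Fh1_fl_fl and 2.52, 1.77, 1.64, 2 and 1.97 CPM in Rec. Rec was below Fh1_fl_fl for Lhx1 (log2 fold change -3.71, SE 0.14, adjusted p = 5.37e-18) and above both clones (log2 difference 5.21, SE 0.47, adjusted p = 1.08e-10 and log2 difference 5.02, SE 0.49, adjusted p = 5.94e-10), where it was nearly absent (0.0398 ± 0.0891 CPM in clone1 and 0.0682 ± 0.0934 in clone19). Sall1 fell from 18.7 ± 1.98 to 4.06 ± 0.369 CPM and Tfap2b from 14.1 ± 1.12 to 4.54 ± 0.934 CPM. Hox genes, which set position along the body axis, were lower as a family. Of 32 tested, 26 fell and 3 rose (Hoxa4, Hoxb9 and Hoxc4), beside 37% and 33.9% over all tested genes. The Hox medians were -0.74 in Rec, -0.68 in clone1 and -0.85 in clone19. With totals scaling 28 fell and 1 rose. Hoxa13 fell from 5.41 ± 0.824 to 0.937 ± 0.525 CPM and Hoxb5 from 22.9 ± 1.28 to 7.88 ± 1.06 CPM. Hox genes of 1 cluster overlap transcripts on the other strand, so single counts are uncertain.

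Junction and polarity genes split. Of 50 tested epithelial genes 25 fell and 10 rose (background 37% and 33.9%), with a median of -0.19. Totals scaling gave 31 and 9. Ap1m2, the adaptor that sorts proteins to the basolateral membrane, was nearly lost. Ap1m2 gave 60.8, 54.3, 68.7, 59.5 and 59.4 CPM in the 5 Fh1_fl_fl libraries and 0.468, 0.492, 0.164, 0.824 and 0.579 CPM in the 5 Rec libraries. Ap1m2 in Rec (log2 fold change -6.91, SE 0.16, adjusted p = 8.44e-23) was below clone1 as well as clone19 (1.38 ± 0.424 CPM in clone1 and 18.8 ± 1.74 in clone19). The mucin Muc1 went from 62.8 ± 6.2 to 1.24 ± 0.231 CPM, with 0.545 ± 0.224 CPM in clone1 and 1.17 ± 0.466 in clone19. The claudins Cldn8 and Cldn4 fell from 22.4 ± 2.19 to 0.993 ± 0.318 CPM and from 714 ± 74.6 to 253 ± 13.1 CPM, and the transmembrane protease Tmprss2 from 31.8 ± 2.03 to 0.619 ± 0.421 CPM. Esrp1, which directs epithelial splicing, stood at 171 ± 3.02 CPM in Fh1_fl_fl and 183 ± 9.15 in Rec, with an adjusted p of 0.076. That p ran from 0.0135 to 0.65 over the alternatives, so the call for Esrp1 depends on the setting. Against the clones, 38 of 50 epithelial genes were higher in Rec than in clone1 and 29 higher than in clone19 (background 39.9% and 36.6%), with 8 and 11 lower (background 38.2% and 37.2%).

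Several mesenchymal genes were lower in Rec. Vimentin (Vim), an intermediate filament of mesenchymal cells, was below the control level. Vim gave 7.74, 9.35, 7.21, 7.31 and 6.7 CPM in the 5 Fh1_fl_fl libraries and 0.935, 1.08, 1.23, 0.942 and 1.62 CPM in the 5 Rec libraries. The groups did not overlap (log2 fold change -2.63, SE 0.14, adjusted p = 3.26e-15), and Vim in the clones was far higher, at 567 ± 39.5 CPM in clone1 and 69.5 ± 3.34 in clone19. Of 24 tested mesenchymal genes 13 fell, 11 of them over 2-fold, and 6 rose (background 37% and 33.9%, and 7.37% over 2-fold lower). Their median was -0.36, against 0.50 in clone1 and 0.83 in clone19. The 6 that rose were S100a4, Sparc, Postn, Loxl1, Loxl2 and Itga5, by up to 1.88 on the log2 scale. Osteopontin (Spp1), a secreted matrix phosphoprotein, had 1220.0, 1193, 1143, 1064 and 1030.0 CPM in Fh1_fl_fl and 106, 109, 105, 106 and 96.2 CPM in Rec (log2 fold change -3.44, SE 0.088, adjusted p = 9.03e-22). It stood at 2517 ± 309 CPM in clone1 and 1693 ± 196 in clone19. The matricellular protein Thbs1 fell from 598 ± 73.6 to 144 ± 25.6 CPM, tenascin C (Tnc) from 21.3 ± 3.31 to 1.04 ± 0.269 CPM, Tgfbi from 7.83 ± 1.16 to 0.0725 ± 0.122 CPM, fibrillar collagen Col5a2 from 25.3 ± 3.9 to 0.186 ± 0.145 CPM and the cadherin Cdh11 from 65.5 ± 6.29 to 5.16 ± 0.851 CPM. Tnc and Tgfbi were low in clone1 (3.27 ± 0.904 and 0.172 ± 0.174 CPM) and in clone19 (2.47 ± 0.747 and 0.0332 ± 0.0742 CPM) as well. Col5a2 and Cdh11 were low in clone1 (0.958 ± 0.395 and 3.58 ± 1.15 CPM) and stood at 49.2 ± 5.53 and 37.8 ± 4.02 CPM in clone19. Thbs1 stood at 684 ± 149 CPM in clone1 and 694 ± 81.6 in clone19. Fibronectin (Fn1) stood at 1558 ± 267 CPM in Fh1_fl_fl and 1521 ± 258 in Rec (adjusted p = 0.848), the matrix protein fibulin 2 (Fbln2) rose from 1.53 ± 0.632 to 10.1 ± 1.51 CPM, and N-cadherin (Cdh2) fell, from 439 ± 48 to 365 ± 36.8 CPM.

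Factors linked to epithelial to mesenchymal transition did not share a direction: of 13 tested, 7 fell and 5 rose (background 37% and 33.9%). Not all of the list are inducers, since it also holds Id1, Id2 and Id3, and Id2 and Id3 are among the 5 that rose. Zeb1, a repressor of Cdh1, fell from 3.26 ± 0.868 to 1.7 ± 0.492 CPM, with overlapping groups, and Twist2 had 0 counts in Rec against 5.93 ± 0.827 CPM (at least 118-fold lower). Zeb2, a related repressor, rose from 2.82 ± 0.43 to 6.95 ± 1.66 CPM, Snai2 from 0.82 ± 0.235 to 1.85 ± 0.777 CPM and Twist1 from 7.95 ± 0.735 to 17.6 ± 2 CPM. Zeb1 and Zeb2 in Rec remained below both clones (50.5 ± 6.71 CPM in clone1 and 17.6 ± 1.56 in clone19 for Zeb1, 69.4 ± 7.58 CPM in clone1 and 50.5 ± 3.75 in clone19 for Zeb2), with log2 differences of -4.89 and -3.36 for Zeb1 and -3.33 and -2.87 for Zeb2. Twist1 in the clones was 15.2 ± 2.26 CPM in clone1 and 19.7 ± 1.16 in clone19. Snai2 and Twist1 were named after their values were seen.

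Of 20 basement membrane genes 9 fell and 3 rose (median -0.44), and of 24 integrins and matrix receptors 15 fell and 6 rose (median -0.45), against 37% lower and 33.9% higher over all tested genes. The share of basement membrane genes that fell is near that background. Col4a3 and Col4a4, chains of the mature glomerular basement membrane, fell from 102 ± 9.23 to 26 ± 2.7 CPM and from 34.5 ± 6.79 to 11.5 ± 1.47 CPM. The tubular matrix protein Tinag fell from 8.95 ± 0.305 to 0.349 ± 0.216 CPM and Frem2 from 16.8 ± 4.24 to 0.674 ± 0.222 CPM. Integrin Itgb3 fell from 7.2 ± 1.36 to 0.696 ± 0.422 CPM and Itga2 from 76.6 ± 12.4 to 29.1 ± 7.85 CPM.

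Interferon response genes fell in the main, and the other immune lists were mixed. Of 23 tested interferon response genes 16 fell and 3 rose (median -0.75), of 14 antigen presentation genes 8 fell and 3 rose (median -0.74, or -0.69 with the gene without counts in 1 group at its bound), and of 33 cytokines and receptors 16 fell and 8 rose (median -0.59), against 37% lower and 33.9% higher over all tested genes. Ifit2, an interferon-induced inhibitor of translation, had 113, 102, 112, 115 and 114 CPM in Fh1_fl_fl and 38, 34.4, 43.4, 41.8 and 43.4 CPM in Rec (log2 fold change -1.47, SE 0.07, adjusted p = 3.67e-16). For Ifit2 the clones stood at 111 ± 10.4 CPM in clone1 and 90.1 ± 1.73 in clone19, above Rec (log2 difference -1.46, SE 0.07, adjusted p = 1.93e-16 and log2 difference -1.16, SE 0.071, adjusted p = 5.72e-14). The interferon list was lower in the clones too, with medians of -0.51 in clone1 and -0.31 in clone19 against the same controls. Of the 23, 11 were lower and 6 higher in Rec than in clone1 (background 38.2% and 39.9%). Against clone19, 10 were lower and 8 higher (background 37.2% and 36.6%). The antiviral gene Ifitm3, whose close relatives make its count uncertain, fell from 10.4 ± 1.37 to 0.383 ± 0.27 CPM. The peptide loading factor Tapbp fell from 86.5 ± 6.31 to 37.4 ± 2.89 CPM. B2m, the light chain of class I molecules, fell from 228 ± 8.73 to 146 ± 8.04 CPM, while the class I heavy chain genes H2-K1 and H2-D1, similar genes with uncertain counts, rose by 0.49 and 0.23 on the log2 scale and the immunoproteasome subunit Psmb10 by 0.97. H2-K1, H2-D1 and Psmb10 were named after their values were seen. The chemokine Ccl2 fell from 35.2 ± 2.66 to 8.7 ± 0.97 CPM, the interleukin 1 receptor Il1r1 from 6.23 ± 0.908 to 0.452 ± 0.262 CPM and the receptor of leukaemia inhibitory factor, Lifr, from 14.4 ± 1.6 to 0.686 ± 0.376 CPM. The iron-trapping protein Lcn2 fell from 40.2 ± 8.28 to 1.06 ± 0.368 CPM and the copper ferroxidase Cp from 101 ± 13.6 to 3.21 ± 0.992 CPM. Leukocyte markers summed lower in Rec, as given above, and their part in these differences was not tested.

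**Figure D4:**
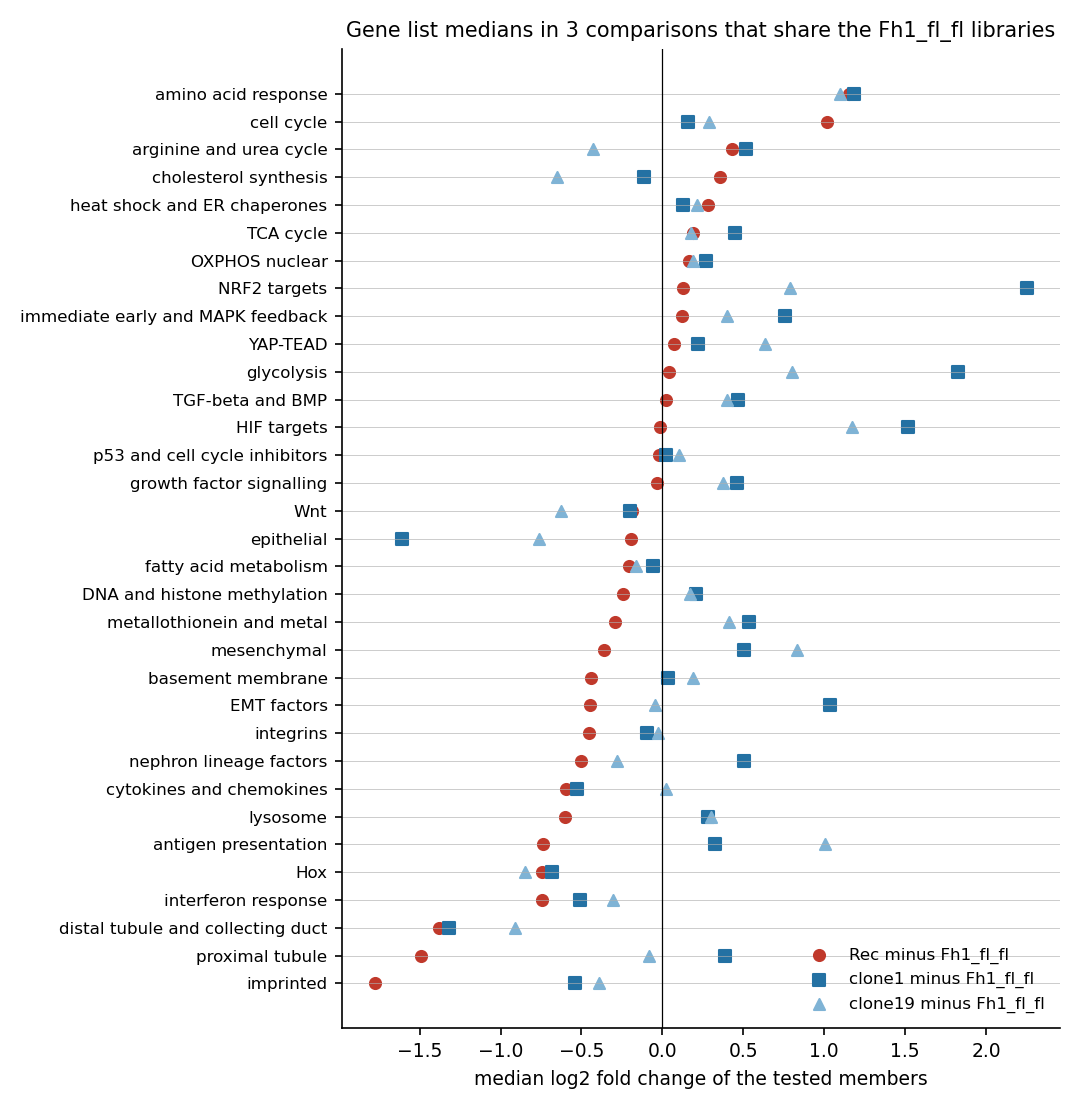
Median log2 fold change of the tested members of each list for Rec (circles), clone1 (squares) and clone19 (triangles), each minus Fh1_fl_fl. All 3 comparisons use the same 5 control libraries. Rec lies near 0 for NRF2, glycolysis and HIF lists (0.13, 0.04 and -0.02) and near the clones for the amino acid response and Hox lists.

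The HIF and NRF2 lists had medians near 0 in Rec. The share of their members that differed from Fh1_fl_fl, in either direction, was near that of all tested genes. Among the 35 HIF targets tested, 12 were called higher and 14 lower in Rec (background 33.9% and 37%). Their median was -0.02 (1.52 in clone1 and 1.17 in clone19, same controls). Thus 26 of the 35 differed from Fh1_fl_fl (background 70.9%). In the direct comparison 32 of the 35 were lower in Rec than in each clone (background 38.2% and 37.2%). With totals scaling 6 rose and 16 fell. The angiogenic factor Vegfa overlapped the controls. Vegfa gave 114, 104, 104, 98.1 and 116 CPM in the 5 Fh1_fl_fl libraries and 109.6, 103, 109, 120.5 and 122 CPM in the 5 Rec libraries. Its difference did not pass the test (log2 fold change 0.07, SE 0.059, adjusted p = 0.28), whereas Rec was below clone1 and clone19 (log2 difference -2.10, SE 0.06, adjusted p = 2.75e-21 and log2 difference -1.58, SE 0.06, adjusted p = 2.52e-18). The glucose transporter Slc2a1 stood at 95.3 ± 10.4 CPM in Fh1_fl_fl and 86.2 ± 5.93 in Rec (adjusted p = 0.161) and lactate dehydrogenase Ldha at 1178 ± 88.1 CPM in Fh1_fl_fl and 1079 ± 58.2 in Rec (adjusted p = 0.0939). Under totals scaling both were called lower, by 0.28 (adjusted p = 0.00956) and 0.26 (adjusted p = 0.00135). Some HIF targets went below the control level: the kinase Pdk1, which limits pyruvate entry into the TCA cycle, fell from 116 ± 9.71 to 51.8 ± 4.72 CPM, and the mitophagy receptor Bnip3 from 120.4 ± 19.9 to 61.6 ± 8.9 CPM. Others rose: the carbonic anhydrase Car12 from 9.23 ± 1.17 to 21.9 ± 2.81 CPM and the lipase inhibitor Angptl4 from 10.7 ± 1.22 to 24.8 ± 2.73 CPM.

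Glycolysis genes, which the HIF list partly contains, gave 7 risers and 5 fallers of 20 (background 33.9% and 37%), with a median of 0.04. Totals scaling gave 2 and 7 and a median of -0.09, so no direction held. Aldolase A (Aldoa) fell from 1135 ± 50.5 to 631 ± 34.3 CPM, Ldhb from 48.7 ± 3.92 to 17.8 ± 1.45 CPM and Eno2 from 5.66 ± 1.7 to 1.42 ± 0.552 CPM. In clone1 and clone19 these 3 stood higher, Aldoa at 4131 ± 438 CPM in clone1 and 2487 ± 155 in clone19, Ldhb at 206 ± 15.8 CPM in clone1 and 100.3 ± 7.66 in clone19 and Eno2 at 47.4 ± 7.02 CPM in clone1 and 42.3 ± 3.09 in clone19. Against the clones, 19 of 20 were lower in Rec than in clone1 and 16 lower than in clone19 (background 38.2% and 37.2%).

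NRF2 targets gave 15 risers and 13 fallers of 36 (background 33.9% and 37%), so 28 differed (background 70.9%). Their median was 0.13 (2.25 in clone1 and 0.79 in clone19). Heme oxygenase 1 (Hmox1) differed from the control level. Hmox1 gave 39.7, 47, 40.4, 39.8 and 40.4 CPM in the 5 Fh1_fl_fl libraries and 104, 108, 101, 99 and 121 CPM in the 5 Rec libraries. Rec was above Fh1_fl_fl (log2 fold change 1.37, SE 0.074, adjusted p = 5.12e-15) and below both clones, at 541 ± 62 CPM in clone1 and 965 ± 40.8 in clone19. Nqo1, a quinone reductase, stood at 2.92 ± 0.638 CPM in Fh1_fl_fl and 3.1 ± 0.789 in Rec (adjusted p = 0.648) against 17.3 ± 1.3 CPM in clone1 and 13.5 ± 2.2 in clone19. Gclm, the modifier subunit of glutamate-cysteine ligase, fell from 91.1 ± 3.89 to 66.2 ± 4.78 CPM, and the glutathione transferases Gstm1 and Gstm2, similar genes with uncertain counts, from 296 ± 14.8 to 109 ± 6.78 CPM and from 45.5 ± 3.28 to 7.98 ± 1.17 CPM. The aldose reductase gene Akr1b3 fell from 2477 ± 312 to 853 ± 45 CPM. Ferritin heavy chain (Fth1) rose from 722 ± 22.2 to 1468 ± 153 CPM, while the iron exporter Slc40a1 fell from 104 ± 4.2 to 19.5 ± 1.8 CPM. Among all 36, 32 were lower in Rec than in clone1 and 25 lower than in clone19 (background 38.2% and 37.2%), and 4 and 6 were higher.

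Central metabolism shifted modestly. For each list here the background over all tested genes is 33.9% higher and 37% lower. In the TCA cycle list 15 of 29 rose and 8 fell, with a median of 0.19 (0.05 with totals scaling). The lipoamide dehydrogenase Dld, shared by pyruvate and 2-oxoglutarate dehydrogenases, rose from 173 ± 13.5 to 355 ± 23.2 CPM and succinate dehydrogenase subunit Sdha from 155 ± 4.9 to 202 ± 11 CPM. Mitochondrial isocitrate dehydrogenase Idh2 fell from 261 ± 9.45 to 144 ± 5.91 CPM and Ogdhl, a relative of 2-oxoglutarate dehydrogenase, from 7.44 ± 1.02 to 0.169 ± 0.117 CPM. Of 48 nuclear genes of oxidative phosphorylation 21 rose and 4 fell (median 0.17, or 0.03 with totals scaling), among them the ATP synthase subunit Atp5b, from 1363 ± 35.3 to 2412 ± 100.3 CPM, and cytochrome c1 (Cyc1), from 134 ± 7.62 to 243 ± 22.2 CPM. Of 23 cholesterol synthesis genes 14 rose and 3 fell (median 0.35), with Idi1 from 185 ± 13.7 to 332 ± 35.8 CPM and Sqle, an early enzyme of the sterol branch, from 183 ± 15.5 to 298 ± 16.4 CPM. Of 30 fatty acid genes 16 fell and 7 rose (median -0.21). The carnitine transferase Cpt1a, which admits fatty acids to mitochondria, fell from 228 ± 11 to 90.7 ± 7.21 CPM and the coactivator Ppargc1a from 21.1 ± 0.585 to 3.05 ± 0.522 CPM, while the fatty acid binding protein Fabp5 rose from 92.4 ± 8.43 to 273 ± 22 CPM.

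The list of enzymes that write and erase DNA and histone methylation also differed. Of its 26 tested members, 15 fell and 5 rose (background 37% and 33.9%), with a median of -0.25 (0.21 in clone1 and 0.17 in clone19). Not all of them act on DNA or histones. The list also holds the HIF prolyl hydroxylases Egln1, Egln2 and Egln3 and the RNA demethylases Fto and Alkbh5. Of these, Egln1, Egln2 and Fto fell and Egln3 and Alkbh5 were not called. All 5 that rose, Dnmt1, Uhrf1, Ezh2, Eed and Suz12, are methyltransferases or their partners. Uhrf1, which guides maintenance methylation at replication, rose from 76.5 ± 5.73 to 185 ± 8.43 CPM. Those that fell included erasers, such as the DNA dioxygenase Tet2, from 6.24 ± 0.865 to 2.17 ± 0.196 CPM, and the histone demethylase Kdm5b, from 99.9 ± 4.88 to 36.9 ± 4.72 CPM, and also the writers Dnmt3a, Dnmt3b and Ezh1. The cell cycle genes, whose phase Uhrf1 and Dnmt1 are known to follow, rose in the same libraries, and their part in this was not tested.

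Signalling lists held mixed directions. Of 39 TGF-beta and BMP genes 13 rose and 15 fell, of 28 Wnt genes 9 and 14, of 33 growth factor genes 12 and 15, of 21 YAP-TEAD genes 9 and 9, of 29 immediate early and MAPK feedback genes 13 and 8, and of 15 metal-handling genes 6 and 5. Over all tested genes 33.9% rose and 37% fell. Within them the ligand Bmp3 was lower by a ratio of 219 (exact 95% counting interval 60.4 to 1815), the co-receptor Tgfbr3 fell from 12.6 ± 1.67 to 1.4 ± 0.452 CPM, and the activin trap follistatin (Fst) rose from 6.39 ± 0.75 to 26.3 ± 1.91 CPM. Fgf1 fell from 47.3 ± 5.51 to 3.66 ± 0.86 CPM and its receptor Fgfr2 from 38.6 ± 3.03 to 12.6 ± 1.01 CPM, while neuregulin (Nrg1) rose from 19.8 ± 3.78 to 52.1 ± 7.33 CPM. The ERK-induced genes Dusp5 and Fosl1 rose from 10.3 ± 1.11 to 47.9 ± 5.37 CPM and from 26.9 ± 3.16 to 100.2 ± 2.07 CPM.

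Large abundant losses outside the lists included Tpm1, an actin-binding tropomyosin, from 1529 ± 34.1 to 619.5 ± 13.8 CPM, and the nuclear long noncoding RNA Neat1, from 1202 ± 226 to 202 ± 13.2 CPM. The caveolar protein gene Cavin2 was an abundant gain, from 22.3 ± 1.49 to 142 ± 7.18 CPM, and stood at 136 ± 5.94 CPM in clone1 and 127 ± 11.2 in clone19.

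Differences were uneven along the genome. Each chromosome's share of the autosomal counts was computed per library, and 17 of 19 autosomes differed between the groups by an exact two-sided permutation test (adjusted p = 0.01005 for 15 chromosomes with the smallest p this design allows, 0.007937, and 0.01774 for chromosomes 16 and 19). Chromosome 10 rose from 4.96 ± 0.0427% in Fh1_fl_fl to 5.83 ± 0.032% in Rec, and 54.1% of its 575 tested genes were higher and 20% lower in Rec, with a median log2 fold change of 0.27. Chromosome 15 rose from 5.19 ± 0.0401% in Fh1_fl_fl to 6.16 ± 0.0637% in Rec (median 0.20) and chromosome 12 from 2.69 ± 0.0208% in Fh1_fl_fl to 3.24 ± 0.0338% in Rec (median 0.14). Chromosome 2 fell from 7.64 ± 0.034% in Fh1_fl_fl to 6.59 ± 0.0434% in Rec, with 48.9% of its 1030 tested genes lower and 22.9% higher (median -0.22). Chromosome 3 fell from 5.27 ± 0.0562% in Fh1_fl_fl to 4.64 ± 0.0466% in Rec (median -0.26) and chromosome 5 from 8.9 ± 0.0165% in Fh1_fl_fl to 8.08 ± 0.0482% in Rec (median -0.13). Chromosomes 1 and 18 did not pass (adjusted p = 0.151 and 0.0754). The count of 17 was the same without the 20 most abundant genes. Copy number was not measured. Among the largest changes of single genes, Odc1 and Rrm2 lie on chromosome 12, Xirp2 on chromosome 2 and Slc7a11 on chromosome 3, so the genes that changed most did not all follow the shift of their chromosome.

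**Figure D5:**
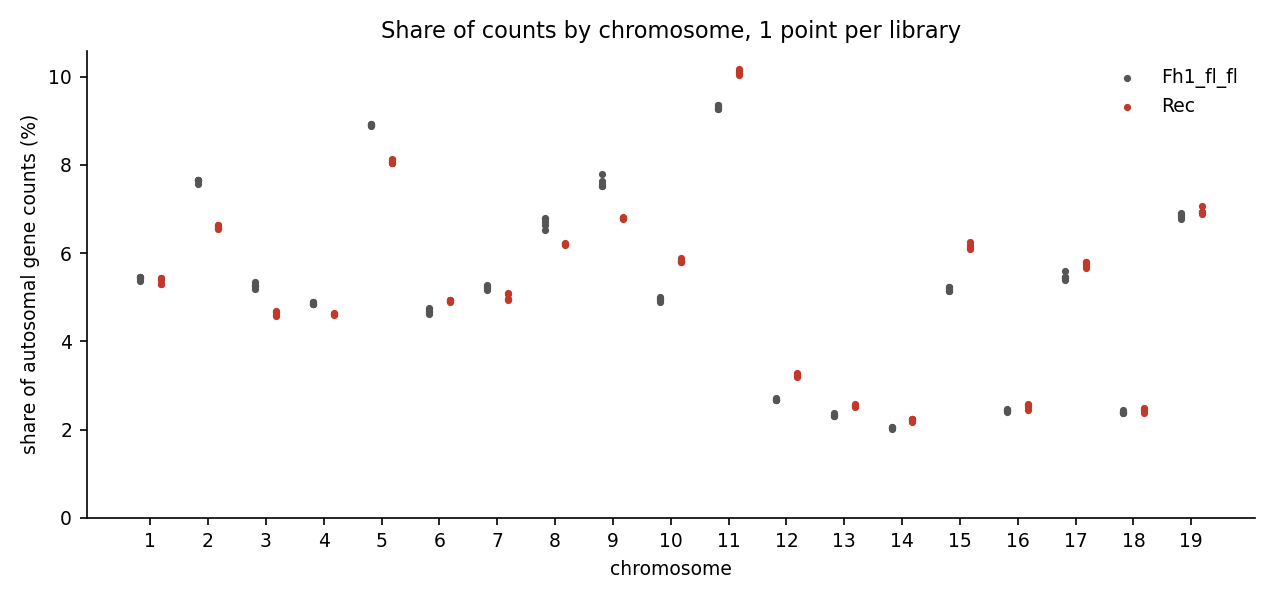
Share of the autosomal gene counts (%) on each autosome, 1 point per library, for Fh1_fl_fl (grey, left) and Rec (red, right). Chromosomes 10, 12 and 15 are higher and chromosomes 2, 3, 5 and 9 lower in all 5 Rec libraries than in all 5 Fh1_fl_fl libraries.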

How the data were processed

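RNA was extracted with a Qiagen RNeasy Plus kit and sequenced on Illumina, per the labels' protocols. The values are counts of reads per gene, deposited by the authors as 1 table per library. The submitters' processing notes name TopHat2 2.0.4, HTSeq 0.5.3p9, DESeq 1.10.1 and genome build GRCm38, with no role stated, and no strand setting is given in the sources used here. Summary lines, left out of library sizes and tests, held 28.8 to 31.5% (Fh1_fl_fl) and 31.2 to 34.3% (Rec) of reads as non-unique alignments, 3.28 to 4.79% without a feature and 0.561 to 0.637% as ambiguous. Reads that map to near-identical copies are therefore missing or uncertain. The tables hold 39179 genes, 37693 with a symbol in the GENCODE M21 annotation of the same build.

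Samples were grouped by title. The labels give no batch. Genes were filtered with filterByExpr, scaled by trimmed mean of M values and fitted over all 20 libraries, which share 1 estimate of the spread (biological coefficient of variation 9.02%), with edgeR 4.0.16 quasi-likelihood tests in R 4.3.3. Adjusted p-values are Benjamini-Hochberg over all 12671 tested genes. Over 2-fold means glmTreat with a log2 bound of 1. The script was tested on simulated data. Of 0 counts, a bound against 3 counts over the group is given, and of 1 to 3 counts a ratio with its exact 95% interval. In a library, 3 counts are 0.158 to 0.346 CPM. Intervals and bounds cover counting error only.

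Named genes are the 12 most changed over 2-fold in each direction without overlap and with 20 CPM in the higher group, the 8 highest of those with 3 or fewer counts in the other group, the 6 most abundant over 2-fold, up to 4 most changed members of each list with 5 CPM, and a set of always-named genes. Some genes that this rule names are not reported here. The members and lists were chosen with earlier results of these data known. Hoxd4, Ctgf, Cyr61, Kcnq1ot1, Snrpn and Peg13 of the lists matched no symbol. Chromosome shares were compared by an exact permutation test over libraries. Alternatives were other scalings, filters, library subsets, DESeq2 1.42.0, a replicate block and each library left out. Promoter windows came from a RefSeq table (GRCm38.p6), which held a window for 9341 of the 12125 tested autosomal genes.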

Additional observations from a re-analysis of the deposited data

Results flagged for a closer look

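Among the 180 genes checked for a library far from the rest of its group of 5, 18 of 328 groups were singled out, and chance gives about 1 in 20. Of the 18, 9 were Rec replicate 2 and 3 were Fh1_fl_fl replicate 2. Rec replicate 2 was high for Tgm1 (37.8 CPM against 27.9 to 30.6 in the other 4), Eif5a (1688 against 1379 to 1462), Tpm1 (643.7 against 609 to 617.5), Shmt2 (536 against 480.1 to 494), Atp5b (2588 against 2337 to 2390.0), Rrm2 (602 against 559 to 568), Dusp5 (57.3 against 44.3 to 46.8) and Atp6v0d1 (85.1 against 72.8 to 75.7). It was low for Itga2, at 15.5 CPM against 29.9 to 35.5.

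Of the other Rec libraries, replicate 1 was low for Muc1 (0.841 CPM against 1.27 to 1.41), replicate 5 was low for Spp1 (96.2 against 105 to 109) and high for Hoxa13 (1.85 against 0.589 to 0.9), and replicate 3 was low for Sdha (183.5 against 202 to 210.1). In Fh1_fl_fl, replicate 2 was low for Ifit2 (101.7 CPM against 112 to 115) and high for Fst (7.69 against 5.84 to 6.34) and Hmox1 (47.1 against 39.7 to 40.4). Replicate 4 was low for Lrrn1 (9.75 against 14.3 to 15.2), and replicate 1 was high for Kcnj16 (198 against 169 to 176).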

How the results depend on the processing

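The count of changed genes ran from 8554 (replicate block) to 9118 (no count filter) over the alternatives that keep all Rec and Fh1_fl_fl libraries, and the count over 2-fold from 1094 (DESeq2) to 1582 (no count filter). Of the changed genes 47.8% were higher in Rec, a share that moved with the scaling and the genes kept. It was 37.1% with totals scaling, 45.0% with upper quartile scaling, 45.7% without a count filter, 49.4% with only the Rec and Fh1_fl_fl libraries, 49.1% without clone19 replicate 3 and 48.9% with autosomal genes only. Leaving out each library in turn gave 8296 to 8461 changed genes, 1283 to 1352 over 2-fold, a share of 47.5 to 49.2% and 16 to 18 chromosomes. Chromosome 19 lost its call without Rec replicate 1 (adjusted p = 0.0621) and chromosome 18 gained one without Rec replicate 2 (adjusted p = 0.0266).

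No gene or chromosome called changed turned its direction. The balance of some lists did turn with totals scaling: glycolysis went from 7 higher and 5 lower to 2 and 7, and p53 targets from 13 and 10 to 11 and 13. Over the 180 named genes 3580 recomputed values kept their call, 11 gained a call and 6 lost one. Genes that were not called, such as Esrp1, Vegfa, Nqo1 and Fn1, changed sign between settings. Totals scaling called Epcam lower (-0.19, adjusted p = 0.0208) and Pax8 lower (-0.20, adjusted p = 0.00806), beside Slc2a1 and Ldha. Ldha was also called lower with upper quartile scaling (adjusted p = 0.0412) and without Fh1_fl_fl replicate 2 (adjusted p = 0.0337). Esrp1 gained a call in 5 settings. Cdh1 lost its call without Rec replicate 2, 3 or 4 or Fh1_fl_fl replicate 1 or 2 (adjusted p = 0.053 to 0.096). The cause was not tested.

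Replicate numbers did not pair the libraries: the correlation of the same-numbered libraries' deviations from their group means ran from -0.0241 to 0.163. With the replicate block 8554 genes changed, 1333 over 2-fold, and 47.8% were higher. Depth limits genes near 3 counts in a library.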

Other observations

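Gene groups of protein synthesis, listed after the values had been seen, were higher in Rec. All 33 tested ribosome biogenesis genes rose, 7 of them over 2-fold, with a median log2 fold change of 0.97, against 0.30 in clone1 and 0.10 in clone19 with the same Fh1_fl_fl libraries (background 33.9% higher). Of 20 aminoacyl-tRNA synthetases, the enzymes that load transfer RNAs, 18 rose and 1 (Qars) fell, with a median of 0.88, beside 0.74 in clone1 and 0.66 in clone19. All 8 subunits of the chaperonin CCT, which folds actin and tubulin, rose, with a median of 0.76. Of 42 cytosolic ribosomal protein genes 37 rose and Rpl5 fell, none over 2-fold, with a median of 0.38. Totals scaling left 26 higher and 2 lower. Near-identical pseudogenes make the ribosomal protein counts uncertain.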
